A study of Mus musculus with 9 samples.

Results

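Cep85 and Cdk13 are 2 of the 55228 features counted in mouse uterus after needle injury. They were selected on measured values of these libraries: both were higher in injury than in sham libraries and lower again in CRC libraries. Those differences are therefore given as a description, without a test. All values are counts on the features of these names. They may not be those of the mRNA, since the strand counted is not given.

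The data are RNA sequencing counts from 9 uteri, with 3 mice in each of 3 groups and 1 library per mouse, all collected on day 7. All mice were WT C57BL females aged 8 weeks. Sham mice had a sham operation. Injury mice had mechanical damage to the uterus, made by 10 turns of a needle (27 gauge), and were given PBS (50 μL). The CRC group had the same damage followed at once by 50 μL of a suspension of WT CRCs, conditionally reprogrammed endometrial epithelial cells. CRCs are grown beside irradiated mouse 3T3 feeder cells. Donor, feeder and host cells are all from mouse, and the counts do not separate their RNA. Whole tissue was used, so a larger share of a cell type and more RNA per cell cannot be told apart in any value below.

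Cep85 is a centrosomal protein that restrains the kinase NEK2, which separates the centrosomes before mitosis, and it also binds STIL in the activation of PLK4 for centriole duplication. Cdk13 is a transcriptional kinase that works with cyclin K and, with its paralog Cdk12, phosphorylates the tail of RNA polymerase II. It carries an arginine- and serine-rich region and is also known for its part in splicing.

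Sham libraries held 325384, 317754 and 327883 counts on features, injury libraries 290684, 280886 and 282937, and CRC libraries 288619, 289964 and 290833. These were 0.776% to 0.898% of all records of a library, since 87.3% to 91.6% of records lay in no feature. Levels are given as CPM (counts-per-million with TMM-scaled library sizes), and 1 count was worth 3.05 to 3.70 CPM. The TMM factors followed the groups, from 0.850 to 0.948 in sham, 0.991 to 1.01 in injury and 1.12 to 1.14 in CRC. Each member is therefore also given on a per-million-records scale, which does not use these factors. Sham replicate 1 stood apart within its group, with a factor of 0.948 against 0.850 and 0.853, and results that moved without it are marked below. Sham replicate 2 had the fewest features with a count, 7805 against 9100 to 10151 in the other libraries. It also had the largest shares of records not aligned (3.13%) and of low alignment quality (4.75%). Sham replicate 3 came next, at 2.52% and 3.90%.

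Markers of the uterus were checked first. Smooth muscle genes had a summed CPM of 399, 559 and 490 in sham, 292, 334 and 316 in injury, with 241, 234 and 311 in CRC. All 8 were counted, most of all Myh11, the smooth muscle myosin heavy chain, and each sham library lay above each injury and CRC library. Endometrial stroma genes summed to 385 ± 113 CPM in sham, 275 ± 43.8 in injury and 356 ± 38.9 in CRC (SD, n = 3 each), with the progesterone receptor gene Pgr the most abundant of 8. Muscle and stroma genes were thus counted, though Myh11 had only 459 counts and Pgr 619 in all 9 libraries. Epithelial genes were hardly counted: Cdh1 and Foxa2 had 0 counts, and the 10 epithelial genes together reached 42.2, 33.3 and 10.7 CPM in sham. In injury they reached 6.94, 21.1 and 17.5 CPM, and in CRC 18.3, 15.4 and 9.15 CPM. The most abundant, Muc1, had 27 counts in all 9 libraries. Of 9 leukocyte genes, 5 had no count, among them Ptprc, which marks all leukocytes. Their sum was 214, 244 and 283 CPM in sham, 219, 190 and 218 in injury, with 149, 111 and 116 in CRC, nearly all from Csf1r, a macrophage receptor. Endothelial genes summed to 26.7 ± 27.6, 18.7 ± 5.46 and 9.19 ± 8.15 CPM, led by Pecam1 with 26 counts. Of the 5 red blood cell genes only Alas2 was counted, at 50.1 ± 3.10, 29.1 ± 1.81 and 48.0 ± 33.3 CPM. Between CRC and sham, Myh11 fell (log2 fold change −1.24, SE 0.30) and so did Csf1r (−1.04, SE 0.26), with adjusted p = 0.00299 and 0.00431 in edgeR's quasi-likelihood test after Benjamini-Hochberg adjustment. No marker passed between injury and sham or between CRC and injury. Their part in the values of Cep85 and Cdk13 was not tested. Polr2a, which all cells use, also had 0 counts. Marker counts here therefore do not give how much of a cell type was present.

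Cep85 (ENSMUSG00000037443.13) is encoded on the minus strand of GRCm38 chromosome 4, between positions 134129858 and 134187112. GENCODE M21 gives it 9 transcripts, 2 of them coding, and their exons merge into 17 blocks of 5269 bases in a body of 57.3 kb. The last block, at the 3′ end, spans 1582 bases. Counts on Cep85 were 111, 85 and 91 in sham, 463, 419 and 390 in injury, with 156, 258 and 232 in CRC. As CPM these were 360, 315 and 325 in sham, 1607, 1473 and 1368 in injury, with 475, 793 and 708 in CRC. The 3 groups did not overlap: each injury library stood above each CRC library, and each CRC library above each sham library. CRC replicate 1 was the lowest of its group and lay nearest to sham. Group means were 333 ± 23.7 CPM in sham, 1483 ± 119 in injury and 659 ± 164 in CRC (SD, n = 3 each). The ratio of means was 4.45 for injury over sham and 0.444 for CRC over injury. The fitted log2 fold changes were 2.15 (SE 0.18) for injury against sham and −1.17 (SE 0.17) for CRC against injury.

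The direct comparison of CRC with sham was not a condition of the choice. It is the sum of the 2 log2 differences that were, in the same libraries. For both genes its p-values are therefore not independent of the choice and are given as a description only. Cep85 was higher in CRC than in sham by a log2 fold change of 0.98 (SE 0.18). The adjusted p was 0.00022 in edgeR's quasi-likelihood test after Benjamini-Hochberg adjustment. The mean CPM was 1.98 times that of sham, and all 3 CRC libraries were above all 3 sham libraries. In this comparison 20.0% of the 3722 tested features were called. On the per-million-records scale Cep85 was 2.54 ± 0.271 in sham, 12.1 ± 0.928 in injury and 6.13 ± 1.47 in CRC, again without overlap.

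**Figure D1:**
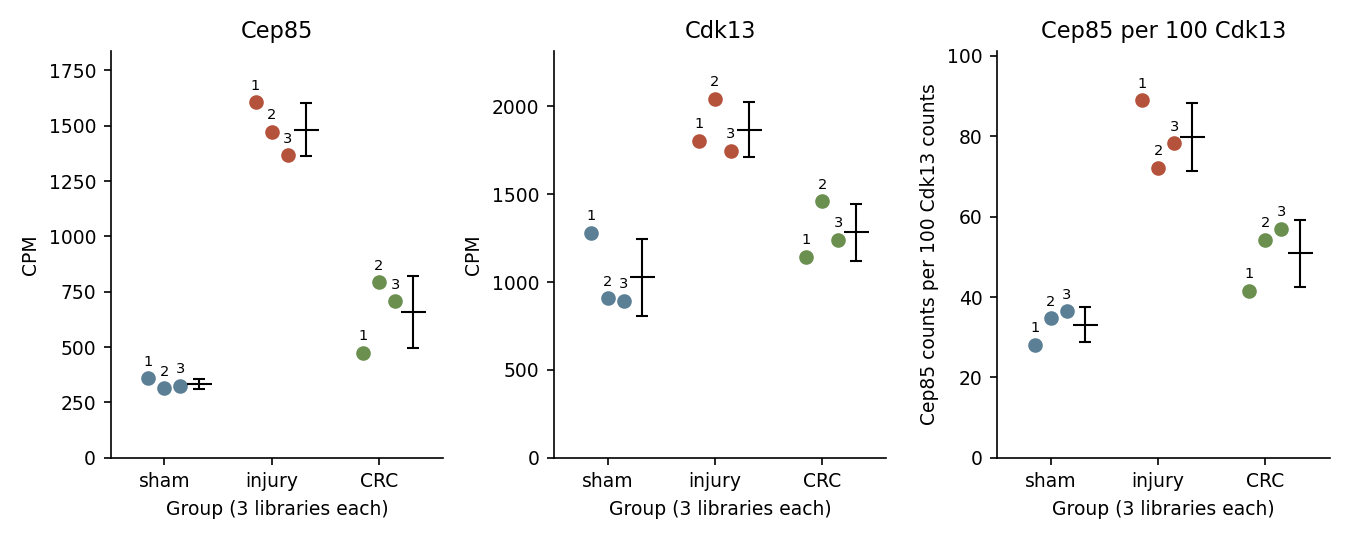
Levels of Cep85 and Cdk13 in CPM and Cep85 counts per 100 Cdk13 counts on linear axes from 0. Points are libraries with their replicate number and bars are group means ± SD (n = 3); injury libraries stand highest in each panel, and only for Cdk13 does a sham library, replicate 1 at 1281 CPM, reach into the CRC values.

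Cdk13 (ENSMUSG00000041297.8) is a minus-strand gene of GRCm38 chromosome 13, between positions 17710315 and 17805097. It has 7 annotated transcripts, 4 of them coding, with 16 exon blocks of 13456 bases in a body of 94.8 kb. Its last block alone spans 8597 bases, 63.9% of the exonic length. Counts on Cdk13 were 395, 245 and 250 in sham, 520, 581 and 498 in injury, with 376, 475 and 407 in CRC. As CPM these were 1281, 907 and 894 in sham, 1804, 2043 and 1747 in injury, with 1145, 1460 and 1241 in CRC. The injury libraries were all above the other 6, while sham and CRC overlapped, with sham replicate 1 inside the range of CRC. Group means were 1027 ± 220 CPM in sham, 1865 ± 157 in injury and 1282 ± 161 in CRC (SD, n = 3 each). The ratio of means was 1.82 for injury over sham and 0.687 for CRC over injury. The fitted log2 fold changes were 0.86 (SE 0.16) for injury against sham and −0.54 (SE 0.16) for CRC against injury. Without sham replicate 1 the first was 1.06.

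For CRC against sham the log2 fold change of Cdk13 was 0.32 (SE 0.16), which did not pass the threshold (adjusted p = 0.168 in edgeR's quasi-likelihood test after Benjamini-Hochberg adjustment). The groups overlapped and their means lay little more than 1 SD apart. This call depended on the scaling and on 1 library, and its p-values too are not independent of the choice of Cdk13. With library sizes made from all records, reads outside features included, the log2 fold change was 0.60 and edgeR's Benjamini-Hochberg adjusted p was 0.00773. That scaling moved the median over all tested features from 0.03 to 0.32. Without sham replicate 1 the log2 fold change was 0.49, with an adjusted p of 0.0191 in edgeR with Benjamini-Hochberg adjustment. Over 18 alternatives this adjusted p in edgeR or DESeq2, by Benjamini-Hochberg, ranged from 0.00773 to 0.503, and 2 passed. On the per-million-records scale Cdk13 was 7.85 ± 1.93 in sham, 15.1 ± 0.791 in injury and 11.9 ± 1.32 in CRC, and here sham and CRC did not overlap. The log2 fold change of Cdk13 between CRC and injury was −0.34 on the scaling by all records. There the median over all tested features moved from 0.01 to 0.21, and Cdk13 lay at −0.55 from the median on both scalings.

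Of the 3722 tested features, 76 (2.04%) had all injury libraries above all sham and all CRC libraries, and both genes are among them by the way they were chosen. In 6 of the 76, Cep85 included, the CRC libraries were also all above the sham libraries. The whole comparison of injury with sham called 16 features (0.430%), 10 higher and 6 lower, and 468 had an unadjusted p under 0.05. Without sham replicate 1 it called 154, without sham replicate 3 or injury replicate 2 it called 3, and without injury replicate 3, injury replicate 1 or CRC replicate 3 it called 4, 8 or 10. CRC against injury called 481 (12.9%, 190 higher and 291 lower), and CRC against sham 746 (299 higher, 447 lower). With library sizes made from all records these were 529, of which 339 were higher, and 924, of which 643 were higher, so which direction had more calls depended on the scaling.

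The ratio between the 2 genes was not the same in the 3 groups. Cep85 had 28.1, 34.7 and 36.4 counts for every 100 counts of Cdk13 in sham, 89.0, 72.1 and 78.3 in injury, with 41.5, 54.3 and 57.0 in CRC. This ratio within a library does not depend on the scaling, and its 3 groups did not overlap. Its means were 33.1 ± 4.38, 79.8 ± 8.56 and 50.9 ± 8.29 (SD, n = 3 each). Divided by the merged exonic length, the level of Cep85 was 63.3 ± 4.50 CPM per kb in sham, 281 ± 22.7 in injury and 125 ± 31.2 in CRC. That of Cdk13 was 76.4 ± 16.3, 139 ± 11.7 and 95.3 ± 11.97 CPM per kb. Per length the genes overlapped in sham and in CRC, and in injury each Cep85 value was above each Cdk13 value. Within sham both genes were highest in replicate 1, and within CRC both were lowest in replicate 1 and highest in replicate 2.

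Whether reads were counted by strand is not given in the sources used here. Over the files, 16.6% of the features matched to the annotation have an exon overlapped by an exon on the other strand, and these hold 79.8% of the counts on matched features. No annotated exon of another gene lies on either strand over the exons of Cep85 or Cdk13. Records that fitted more than 1 feature were 0.00493% to 0.0773% of a library. Polr2a, a gene that all cells use, had 0 counts. The counts do not show which strand of either locus was read, and this was not tested. The values of Cep85 and Cdk13 are therefore levels of the features and may not be those of their mRNA.

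Neighbouring features were looked at for the same pattern. Beyond the 3′ end of Cep85, 2.3 kb away, the plus-strand gene Ubxn11 converges on it and held 8, 19 and 5 sham counts, 9, 5 and 11 injury counts, and 15, 14 and 11 CRC counts. The groups overlapped, and the log2 fold change for injury against sham was −0.37 (SE 0.58, adjusted p = 0.855 in edgeR's quasi-likelihood test after Benjamini-Hochberg adjustment). Sh3bgrl3, between them and overlapping Ubxn11 on the other strand, held 6 counts in all, and Gm7534, 3.7 kb upstream of Cep85, held 2. Past the 3′ end of Cdk13, 451 bases away and on the same strand, Gm48621 held 46, 55 and 34 sham counts, 36, 47 and 42 injury counts, and 25, 51 and 54 CRC counts. Its groups overlapped too, with a log2 fold change of −0.11 (SE 0.31, adjusted p = 0.924 by the same edgeR test and Benjamini-Hochberg adjustment). In introns of Cdk13, Gm48624 held 45 counts in all, and 8430406P12Rik held 2, 0 and 1 in sham, 5, 4 and 3 in injury, with 1, 1 and 1 in CRC. The injury counts of 8430406P12Rik were the highest, at single digits that were too low for the test. The small nuclear RNA gene Gm24018, upstream of Cdk13, held 0.

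**Figure D2:**
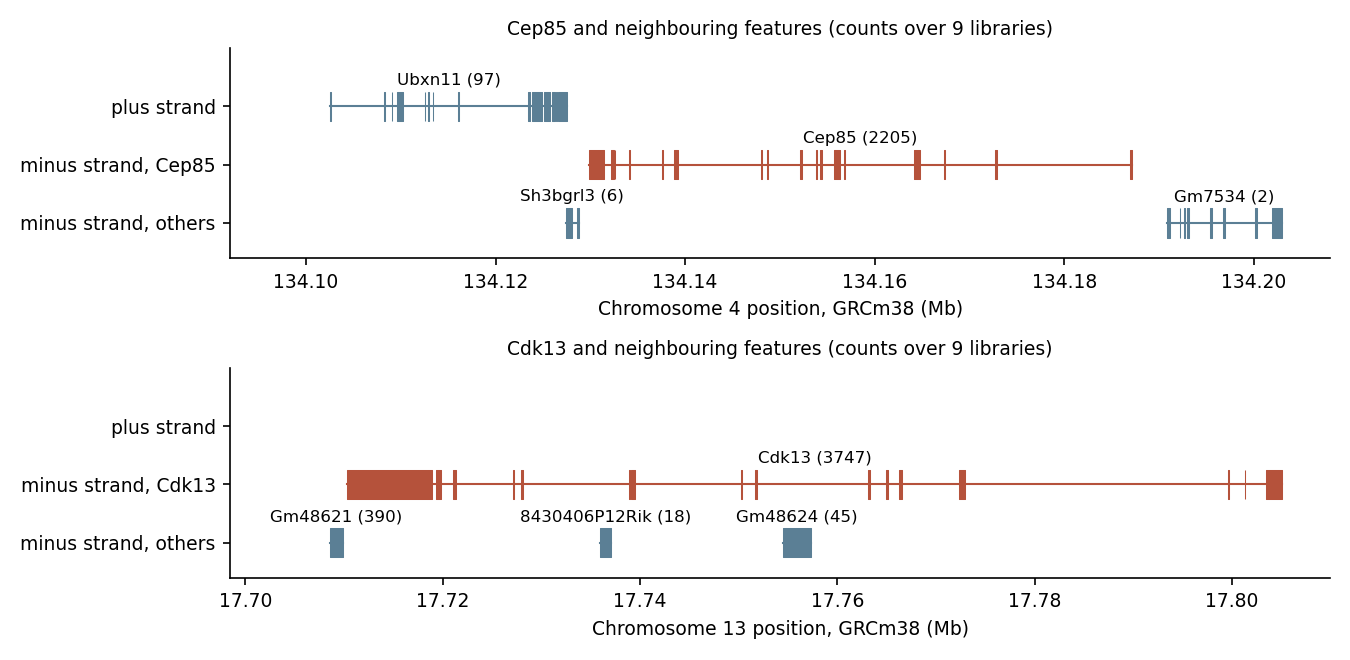
Maps of the Cep85 and Cdk13 loci to scale along GRCm38 positions in Mb, with boxes for merged exons, lines for gene bodies and counts over the 9 libraries in parentheses. Cep85 holds 2205 counts and Cdk13 3747, against 390 or fewer on each neighbour drawn.

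The promoters of both genes are shown because the values of the genes go in the same direction across the groups. The sequences are from RefSeq (GRCm38.p6) and run 5′ to 3′ on the minus strand. Both genes had an entry in the table. Each is the part of the 250 bases before the RefSeq start that lies outside annotated transcripts, at chr4:134187113-134187335 for Cep85 and chr13:17805213-17805347 for Cdk13. Capitals mark matches to the words searched below, on either strand.
Cep85: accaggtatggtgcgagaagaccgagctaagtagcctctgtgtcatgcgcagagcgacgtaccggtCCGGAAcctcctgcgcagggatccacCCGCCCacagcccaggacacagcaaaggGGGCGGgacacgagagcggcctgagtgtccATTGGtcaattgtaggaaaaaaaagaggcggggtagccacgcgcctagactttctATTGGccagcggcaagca
Cdk13: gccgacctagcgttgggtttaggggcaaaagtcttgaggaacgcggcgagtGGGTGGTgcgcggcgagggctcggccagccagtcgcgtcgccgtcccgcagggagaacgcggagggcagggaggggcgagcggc

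The words were searched on both strands over the full 250 bases, and the share of all 32851 promoters of that length with a match is given for each. Cep85 had the GC box GGGCGG (32.7%) at 158 and at 130 bases before the start, the CCAAT box CCAAT (33.8%) at 100 and at 45 bases, and the ETS core CCGGAA (12%) at 184 bases. Cdk13 had the GLI core ACCACCC (3.92%) at 199 bases, read on the reverse strand, and the GC box at 94 and the ETS core at 64 bases. Those last matches lie past the printed stretch of Cdk13, where a further RefSeq transcript begins. No match to another word overlapped any of these. Neither promoter held the TATA box TATAAA (12.4%), the CHR word TTTGAA (16.0%), the CRE word TGACGTCA (1.55%), the NRF1 word GCATGCGC (2.26%), or the E2F words TTTGGCGC (0.417%) and TTTCGCGC (0.256%). The GC content over 250 bases was 61.2% for Cep85 and 76.8% for Cdk13, higher than in 74.8% and 97.2% of the promoters, whose median was 52.4%.

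The paralogs and direct partners of the 2 genes were barely counted. Cep85l, the paralog of Cep85, had 0 counts in all 9 libraries, as did Stil and Nek2. A count of 0 over the 2694944 counts on features allows up to 1.11 CPM before TMM scaling, at 95% confidence for counting error alone, with the mice pooled. Genes that all cells use were also at 0, among them Polr2a, for the largest subunit of RNA polymerase II, Cdk7, Cdk9 and Srsf3. A 0 here therefore limits the counts on a feature and not the RNA of the gene. Exons of Cep85l and Nek2 are overlapped on the other strand, by Pln (1055 counts) and Gm38037 (31 counts) among others. Cdk12, the paralog of Cdk13, had 4 counts in all and its partner Ccnk, which encodes cyclin K, had 47. The kinase gene Plk4 was tested, with 28.9 ± 21.3 CPM in sham, 19.9 ± 5.45 in injury and 44.9 ± 24.7 in CRC, and its groups overlapped. Its log2 fold change between injury and sham was −0.54 (SE 0.69, adjusted p = 0.806 in edgeR with Benjamini-Hochberg adjustment).

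Other genes of the same pathways were taken from 9 lists with 195 genes besides Cep85 and Cdk13. Of these, 194 were in the files, 58 had 0 counts, and 42 had enough counts to be tested. Between injury and sham, where both members were chosen, 0 of the 42 passed in edgeR and 0 in DESeq2, with 2 at an unadjusted p under 0.05 in edgeR. Beside these, 0.430% of all tested features passed, which is under 1 in 42, and 468 of 3722 had such a p. Without sham replicate 1, 2 of 47 listed genes passed in edgeR, beside 154 of 4140 features. Between CRC and sham 8 passed (19.0%, beside 20.0% of all tested features), 5 higher and 3 lower. Between CRC and injury 6 passed (14.3%, beside 12.9%), 3 higher and 3 lower. Median log2 fold changes of the 42 were 0.01, 0.02 and −0.06 in these comparisons, and those of all tested features −0.01, 0.03 and 0.01. Many of the 42 have exons overlapped on the other strand, as given by list below, so these calls and medians are uncertain.

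Among genes of centriole duplication, the process in which Cep85 acts with STIL, 12 of 19 had 0 counts and 0 of the 4 tested passed in any comparison. Their median log2 fold change was −0.29 for injury against sham, −0.09 for CRC against sham and −0.17 for CRC against injury. Cep57, the most abundant, stood at 108 ± 39.1 CPM in sham, 105 ± 30.1 in injury and 101 ± 12.7 in CRC, and Cep295 at 107 ± 58.6, 73.4 ± 24.0 and 56.0 ± 6.52. Of the genes of the centrosome linker, which NEK2 dissolves, 3 of 13 were tested and 0 passed, with medians of 0.40, 0.30 and −0.24 in the same order. At the shares of all tested features (0.430%, 20.0% and 12.9%), lists of 3 or 4 would have under 1 call, so these 0 calls carry little information. The linker gene Cep68 had 542 ± 86.2 CPM in sham and 541 ± 12.7 in injury, and stood at 458 ± 75.7 in CRC. Lrrc45, another linker gene, had 36.1 ± 3.03, 47.8 ± 5.36 and 49.9 ± 7.91 CPM.

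In the pericentriolar material 4 of 19 genes were tested, with medians of −0.40, −0.37 and −0.05. Akap9, a scaffold of the centrosome and Golgi, fell from 178 ± 5.97 CPM in sham to 58.1 ± 11.3 in CRC (log2 fold change −1.61, SE 0.33, adjusted p = 0.000525 in edgeR with Benjamini-Hochberg adjustment). Injury libraries lay between, at 117 ± 38.4 CPM. The γ-tubulin ring genes Tubgcp6 and Tubgcp4 passed in none of the 3 comparisons. In the CEP family 6 of 35 genes in the files were tested and 17 had 0 counts. Cep72 rose in CRC to 95.7 ± 9.60 CPM, from 25.6 ± 6.85 in sham and 24.5 ± 10.6 in injury. Its log2 fold changes were 1.89 (SE 0.46) and 1.95 (SE 0.47), with adjusted p = 0.00368 and 0.00398 in edgeR with Benjamini-Hochberg adjustment. The counts of Cep72 were only 8, 5 and 9 in sham and 7, 10 and 4 in injury. In these 2 comparisons 20.0% and 12.9% of all tested features were called.

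On the side of Cdk13, 3 of 20 genes for transcriptional kinases and their partners were tested, with medians of −0.16, −0.02 and 0.14. Med12l, a subunit of the Mediator kinase module, stood at 1263 ± 273 CPM in sham and 1253 ± 193 in injury and fell to 505 ± 167 in CRC. Its log2 fold change against sham was −1.32 (SE 0.20), with adjusted p = 9.28e-06 in edgeR with Benjamini-Hochberg adjustment. Ccnh, the cyclin of Cdk7, had 134 ± 33.0, 120 ± 29.7 and 133 ± 40.6 CPM. Of 32 genes of RNA polymerase II elongation, 6 were tested, with medians of 0.18, 0.84 and 0.59. Hexim1, an inhibitor of the elongation kinase P-TEFb, rose from 290 ± 31.8 CPM in sham and 280 ± 65.1 in injury to 497 ± 48.3 in CRC. Rprd1b, which binds the polymerase tail, rose from 276 ± 99.7 and 261 ± 23.0 to 553 ± 65.1. Against sham the log2 fold changes were 0.78 (SE 0.20) and 1.00 (SE 0.22), with adjusted p = 0.00677 and 0.00135 in edgeR with Benjamini-Hochberg adjustment.

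Long genes of the DNA damage response, whose transcription depends on Cdk12 in other cells, had 6 of 19 members tested and medians of −0.08, −0.03 and −0.05. Brca2 rose from 13.0 ± 16.6 CPM in sham to 78.4 ± 32.2 in CRC, with injury at 23.3 ± 11.2. Against sham its log2 fold change was 2.57 (SE 0.65, adjusted p = 0.00482 in edgeR with Benjamini-Hochberg adjustment). The sham counts were only 1, 1 and 9. Against injury the log2 fold change was 1.73 (SE 0.60) and did not pass (adjusted p = 0.0516 by the same edgeR test and adjustment). Trp53bp1, a repair factor and the most abundant, had 1419 ± 457, 1659 ± 258 and 1297 ± 105 CPM, with overlapping groups, and Fanca had 131 ± 26.5, 116 ± 34.3 and 138 ± 19.0. Of the SR proteins and splicing kinases 6 of 22 were tested, with medians of 0.10, 0.15 and 0.12. The splicing kinase Srpk2 rose from 688 ± 127 CPM in sham to 970 ± 27.6 in CRC (log2 fold change 0.49, SE 0.16, adjusted p = 0.0284 by the same edgeR test and Benjamini-Hochberg adjustment). Its injury libraries, at 874 ± 30.8 CPM, were above sham and below CRC, unlike those of Cdk13. Son had 156 ± 52.1, 176 ± 62.7 and 165 ± 14.8 CPM.

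Genes of the cell cycle had 8 of 33 members tested, with medians of 0.21, −0.44 and −0.44. Cdk4, which acts with D cyclins in G1, was at 1020 ± 197 CPM in sham and 1082 ± 57.6 in injury and fell to 577 ± 82.3 in CRC. Its log2 fold changes were −0.82 (SE 0.17) against sham and −0.91 (SE 0.17) against injury, with adjusted p = 0.000615 and 0.000306 in edgeR with Benjamini-Hochberg adjustment. Ccnd1, for cyclin D1, had 293 ± 64.2, 348 ± 28.7 and 305 ± 51.0 CPM and passed in no comparison. Akap9, Tubgcp6, Tubgcp4, Cep295, Med12l, Ccnh, Rprd1b, Brca2, Trp53bp1, Fanca, Srpk2, Son, Cdk4, Ccnd1, Csf1r and Alas2 have exons overlapped on the other strand. Reads of the partner cannot be told apart from theirs, so their values are uncertain. Such overlap held for all tested genes of 4 lists: cell cycle (8), DNA damage (6), pericentriolar material (4) and transcriptional kinases (3). It held for 5 of 6 in the SR list, and for 3 of 6 in both the CEP and elongation lists. In centriole duplication it held for 2 of 4, and in the linker for 1 of 3. The medians and calls of these lists are uncertain for the same reason.

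The features most like each gene were ranked by Pearson's r of log2 CPM over the 9 libraries. The 9 values include the group differences on which both genes were chosen, so r is a description. For Cep85 they were Usp49 (r = 0.958), a histone H2B deubiquitinase, Cdk13 itself (0.936), Cd247 (0.917), a T cell receptor chain, Pus3 (0.906), a pseudouridine synthase, and Jarid2 (0.900), a partner of the PRC2 complex. For Cdk13 they were Cd247 (0.952), Usp49 (0.942), Cep85 (0.936), the RNA-binding gene Rbm4b (0.936) and Pus3 (0.931). The lists have 3 other features in common, Usp49, Cd247 and Pus3. Usp49 had 83.5 ± 9.66 CPM in sham, 156 ± 10.6 in injury and 118 ± 15.04 in CRC, without overlap between the groups. Cd247 had 783 ± 63.9, 1045 ± 50.7 and 932 ± 101 CPM, Pus3 90.4 ± 11.9, 138 ± 16.5 and 117 ± 6.60, and Jarid2 126 ± 21.1, 199 ± 11.3 and 166 ± 5.46. In each of them the injury libraries were all above the sham libraries, as the ranking favours. Exons of Usp49, Cd247, Pus3 and Rbm4b are overlapped on the other strand, those of Jarid2 are not.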

How the data were processed

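The sample labels gave the groups and replicate numbers of 9 uterine RNA libraries. The authors deposited counts of reads per feature, not normalized, for each library. Ribosomal RNA was removed before sequencing, and the submitters' processing notes name HISAT2 2.1.0 and StringTie 2.1.1. The count files have the name and summary rows of HTSeq, and its version and strand setting are not given in the sources used here. Records outside features, 99.1% to 99.2% of each library, stayed out of library sizes.

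Features were filtered with filterByExpr, leaving 3722, scaled by TMM and fitted with edgeR 4.0.16 (robust quasi-likelihood, all 9 libraries, no covariates) in R 4.3.3. A Benjamini-Hochberg adjusted p under 0.05 was called. The pipeline was tested on simulated data, with counts drawn independently for each library. The simulation held no reads from another strand and no outlying library, so it does not bear on those limits. Positions and overlaps are from GENCODE M21, matched by name for 53456 features. The paper gives version 23 for its clustering, which was unavailable here, so lengths and overlaps could differ. log2 CPM used a prior count of 2.

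The 2 genes and all lists were chosen with earlier results of these data known. Named genes were the members, their paralogs and partners, the nearest neighbours and any with at least 10 counts within 50 kb, the 5 most correlated features, and in each list those called and the 2 most abundant. Alternatives were other scalings and filters, DESeq2 1.42.0, a replicate block, 2-group fits and leaving out each library.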

Additional observations from a re-analysis of the deposited data

How the results depend on the processing

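For both genes the p-values of CRC against sham are not independent of the choice, so the passes below are a description. Cep85 passed for CRC against sham in all 18 alternatives, with log2 fold changes from 0.84 to 1.27. Its adjusted p was at most 0.00478 by Benjamini-Hochberg in edgeR or DESeq2. Cdk13 passed in 2 of 18, at 0.60 with library sizes made from all records and at 0.49 without sham replicate 1, and the range with 1 library left out was 0.20 to 0.49. With that scaling Cdk13 was at −0.34 for CRC against injury, where the median over all tested features moved from 0.01 to 0.21. Both genes kept the direction of injury against sham (Cep85 2.09 to 2.24, Cdk13 0.77 to 1.06) and of CRC against injury (Cep85 −1.33 to −0.97, Cdk13 −0.65 to −0.34) in all 18 alternatives, a direction for which they were chosen in these libraries.

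The number of features called between injury and sham was 16, and from 3 to 154 with 1 library left out: 154 without sham replicate 1, 3 without sham replicate 3 or injury replicate 2, 4 without injury replicate 3, 8 without injury replicate 1 and 10 without CRC replicate 3. With only the 2 groups compared it was 6. Of listed genes, 0 to 2 were called with 1 library left out, and the 2 were called without sham replicate 1. For CRC against injury 10 were called with only the 2 groups compared. The cause of these shifts was not tested.

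With a replicate block, 5 features were called between injury and sham, and for CRC against sham Cep85 (0.97) was called and Cdk13 (0.32) was again not. Same-numbered libraries correlated between −0.0964 and 0.0801 in their deviations from the group means, and in 7 of 18 cases a library correlated best with its own number. By number, injury and CRC correlated at 0.0383, 0.0801 and 0.00852, sham and injury at −0.0736, −0.04 and 0.0106, and sham and CRC at −0.0964, −0.0463 and 0.0205. Deviations from means of 3 libraries cannot exclude a pairing, so whether the numbers pair the libraries stays undecided. Depth limits genes with few counts: 111 of the listed genes had under 10 counts in all libraries together.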
